A study of Mus musculus with 3 samples.

Results

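The Kruppel-like factor genes Klf2, Klf3, Klf4, Klf6, Klf7, Klf9, Klf10, Klf11, Klf12 and Klf13 were examined in resting natural killer (NK) cells. The 10 genes were found by symbol among 22350 protein-coding genes annotated on mouse genome build mm9. Each gene body was taken with 20 kb on either side, which is called its window, and every Runx3 peak and H3K4me1 region sharing at least 1 bp with a window was listed. The 10 windows held 25 of the 15524 Runx3 peaks and 50 of the 49902 H3K4me1 regions.

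Chromatin of freshly isolated splenic NK cells of ICR mice was studied by immunoprecipitation and sequencing (ChIP-seq) in 3 samples, 1 per group. It was precipitated with antibodies to the transcription factor Runx3 or to histone H3 monomethylated at lysine 4 (H3K4me1), a mark of enhancers that also borders active promoters, or with non-immune serum (NIS) as the control against which regions were called. No genotype or treatment was compared. The lists give positions alone, with no peak height, read count or NIS signal, so no replicate error can be given and every comparison is a description without a test.

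Kruppel-like factors bind GC-rich and CACCC sequences through zinc fingers at the carboxyl end, and their other parts recruit co-activators or co-repressors. KLF2 is best known in lymphocytes for holding naive T cells in quiescence and for maintaining receptors used in trafficking. Among the 10 genes, Klf2, Klf4, Klf6 and Klf7 encode mainly activators, Klf3 and Klf12 encode repressors that recruit the CtBP co-repressor, and Klf9, Klf10, Klf11 and Klf13 encode repressors that recruit Sin3A.

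The Runx3 peaks at these genes were of different kinds, and sequences of both kinds are given first. Runx proteins bind TGTGGT and close variants, and the search covered TGTGGT and TGTGGC and TGCGGT and TGCGGC on both strands. The following 200 bp stretches, on build mm9, come from peaks with few CpG dinucleotides, more than 1 kb from any start of their gene, and are shown because a match lies near the peak midpoint. Each is read 5′ to 3′ on the strand of its gene, lies outside annotated exons and has RUNX matches in capitals.
Klf3 peak 1, chr5:65205813-65206012, plus strand: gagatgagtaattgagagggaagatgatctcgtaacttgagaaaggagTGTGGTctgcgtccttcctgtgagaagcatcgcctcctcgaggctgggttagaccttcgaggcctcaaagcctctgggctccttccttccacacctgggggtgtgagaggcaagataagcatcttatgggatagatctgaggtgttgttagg
Klf6 peak 2, chr13:5846181-5846380, plus strand: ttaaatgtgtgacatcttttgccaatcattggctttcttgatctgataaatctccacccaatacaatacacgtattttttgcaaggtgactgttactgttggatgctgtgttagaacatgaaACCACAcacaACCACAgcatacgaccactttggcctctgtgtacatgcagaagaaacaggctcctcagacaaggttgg
Klf10 peak 4, chr15:38212579-38212778, minus strand: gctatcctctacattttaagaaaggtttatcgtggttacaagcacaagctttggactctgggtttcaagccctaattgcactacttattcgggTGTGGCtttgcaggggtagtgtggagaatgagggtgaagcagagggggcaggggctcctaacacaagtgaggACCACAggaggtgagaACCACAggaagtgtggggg
Klf13 peak 4, chr7:71075042-71075241, minus strand: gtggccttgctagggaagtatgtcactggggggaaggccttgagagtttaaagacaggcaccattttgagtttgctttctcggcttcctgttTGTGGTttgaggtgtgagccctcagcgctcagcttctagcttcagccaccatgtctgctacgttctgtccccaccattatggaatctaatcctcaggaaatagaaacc
The Klf6 stretch, upstream of the gene, carries 2 matches, and the Klf10 stretch, downstream of the gene, carries 3. The last capitals of the Klf10 stretch share 1 base with AGGAAGT, a sequence bound by ETS factors, which is printed there in small letters.

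The next stretches come from CpG-rich peaks that reach a transcription start, and are shown for contrast, with the same marking.
Klf2 peak 1, chr8:74842732-74842931, plus strand: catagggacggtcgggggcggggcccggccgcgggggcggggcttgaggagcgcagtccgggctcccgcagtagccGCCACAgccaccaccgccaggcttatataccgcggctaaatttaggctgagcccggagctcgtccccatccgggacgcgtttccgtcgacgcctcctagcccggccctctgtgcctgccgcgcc
Klf10 peak 1, chr15:38230496-38230695, minus strand: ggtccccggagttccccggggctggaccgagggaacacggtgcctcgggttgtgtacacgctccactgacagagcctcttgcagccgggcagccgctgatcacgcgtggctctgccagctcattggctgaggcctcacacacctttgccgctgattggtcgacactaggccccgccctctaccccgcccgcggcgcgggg
Klf11 peak 1, chr12:25335788-25335987, plus strand: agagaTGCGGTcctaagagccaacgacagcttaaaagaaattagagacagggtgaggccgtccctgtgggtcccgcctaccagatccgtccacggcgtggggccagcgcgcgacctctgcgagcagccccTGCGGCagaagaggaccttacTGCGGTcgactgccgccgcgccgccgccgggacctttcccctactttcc
They lie 5′ of the outermost start of each gene. The Klf2 stretch has 1 match and ends at the base before the start. The Klf10 stretch has 0 matches, whereas the Klf11 stretch has 3, all of the kind that contains a CpG.

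Runx3 was found at 9 of the 10 genes. Of all protein-coding genes, 51.0% had at least 1 Runx3 peak in a window built in the same way. Klf13 had 7 peaks, Klf6 and Klf10 had 4 each, Klf3 had 3, and Klf2 and Klf11 had 2 each. Klf4, Klf7 and Klf9 had 1 peak each and Klf12 had none. The median was 2 peaks against 1 for all genes. Per 100 kb of window the median was 4.19 peaks against 0.459, while the windows themselves were of similar length, with medians of 58.5 and 55.4 kb. Since only 51.0% of all genes had a peak, the median of 0.459 lies just above the genes without one. The 2 densities should therefore not be read as a ratio.

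Longer windows have more room for a peak, so the genes were also read within classes of window length. In windows under 60 kb, 45.0% of genes held a peak, as did all 5 Klf genes of that class (Klf2, Klf4, Klf6, Klf10 and Klf11). Between 60 and 100 kb the share was 60.8%, and Klf3, Klf9 and Klf13 all held a peak. Above 100 kb it was 56.2%, and Klf7 held a peak whereas Klf12 did not. Klf13 stood high in its class, with fewer peaks in 98.9% of the genes, and Klf6 and Klf10 did in theirs with 94.6%. At least 4 peaks, as at Klf6, Klf10 and Klf13, were found at 7.32% of all genes. Klf9, by contrast, had more peaks than 39.2% of its class and Klf7 more than 43.8%, so a single peak did not set these genes apart.

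**Figure D1:**
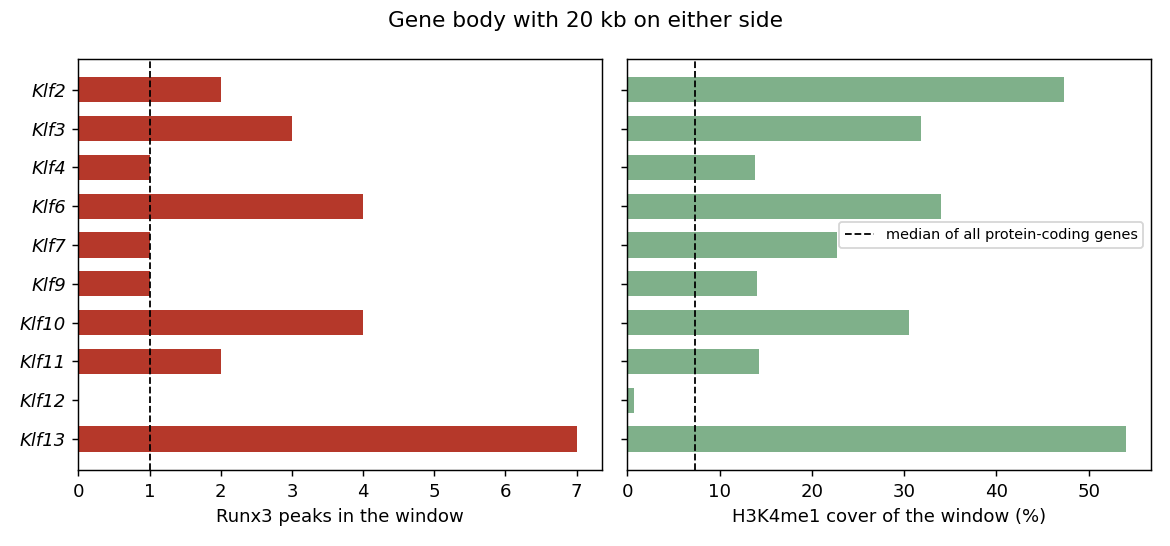
Number of Runx3 peaks (left) and percent of bases inside an H3K4me1 region (right) in the window of each of the 10 Klf genes, from 1 list per antibody; the dashed line is the median of all protein-coding genes. Klf13 is highest in both panels with 7 peaks and 54.0% cover, and Klf12 is lowest in both.

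Each of the 25 peaks had a member gene as its nearest protein-coding start. Counting noncoding genes as well, the single Klf9 peak lay nearer to the start of 2410080I02Rik, at 912 bp from its midpoint. The peaks had a median width of 823 bp, from 548 to 1772 bp, against 825 bp for the whole list. By position 7 lay in introns, 3 upstream and 4 downstream of the gene, and 11 touched exons. The exonic peaks comprised 4 on coding exons, 2 on exons of untranslated regions (UTR) and 5 on both.

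A Runx3 peak lay within 1 kb of a protein-coding start at 6 of the 10 genes, namely Klf2, Klf6, Klf7, Klf10, Klf11 and Klf13. Among all genes the share was 27.5%. The members just outside this distance were Klf4, whose peak edge was 1030 bp from a start, and Klf3 at 1904 bp. Of the 25 peaks, 10 lay within 1 kb of a start and 15 lay further away, and the midpoints of 9 were more than 5 kb from the nearest start of the gene.

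H3K4me1 cover of the windows varied, from 0.768% at Klf12 and 13.8, 14.1 and 14.3% at Klf4, Klf9 and Klf11 to 54.0% at Klf13. The median was 26.6% of the window bases against 7.38% for all genes, with medians of 4 and 3 regions. A region of at least 10 kb occurred at Klf2, Klf3 and Klf13 and at 5.38% of all genes. Of the 50 regions, 17 held a Runx3 peak, including the widest Klf2 region, whose 4 peaks all lay outside the window. The share over all 49902 regions is not given here. In the other direction, 23 of the 25 Klf peaks overlapped H3K4me1, or 92% (95% Wilson interval 75.0 to 97.8%), against 95.7% of all Runx3 peaks. These and the other intervals cover counting error over peaks only, and neighbouring peaks of a gene are not independent. The peaks were therefore marked at much the same rate as the list as a whole.

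**Figure D2:**
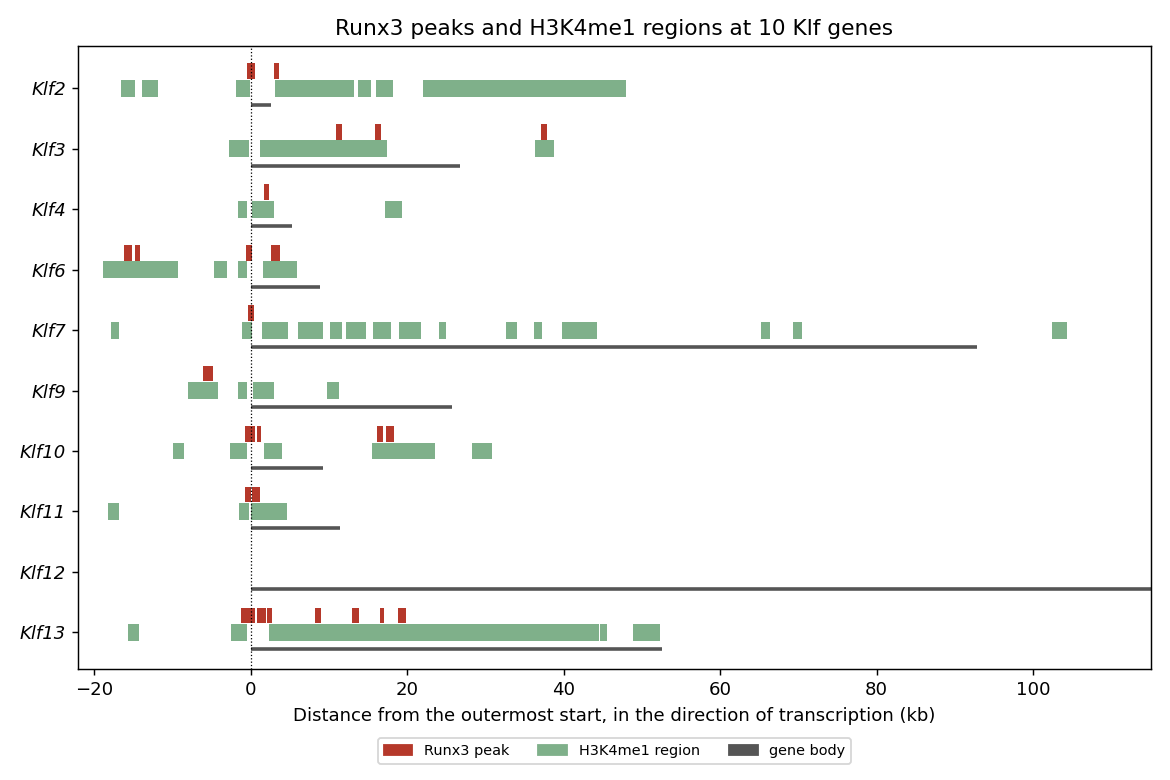
Runx3 peaks (upper marks), H3K4me1 regions (middle bars) and gene bodies (lower lines) for the 10 Klf genes, against the distance in kb from the outermost start in the direction of transcription. The gene body of Klf12 runs past the right edge and its only H3K4me1 region is off the plot; the widest Klf2 region is drawn whole although it leaves the window.

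H3K4me1 lay within 1 kb of a start at 9 of the 10 genes, against 59.0% of all genes, with Klf12 as the exception. The outermost start base itself was inside a region at Klf7 alone, against 7714 of the 22350 genes annotated. At the other 8 marked genes it lay in a gap without H3K4me1 that had a region within 5 kb on both sides, an arrangement found at 17.3% of all genes. Thus at these 8 genes the mark stood on both flanks of the outermost start and was missing over it. Counting any annotated coding start, 5 of the 10 genes had a start base inside a region. The share of all genes by this count is not given here, so whether 5 is usual cannot be read from it.

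The gaps differed in width. They measured 3164 bp at Klf2, 2861 bp at Klf13, 2094 bp at Klf10, 1999 bp at Klf6 and 1480 bp at Klf3. Narrower gaps were found at Klf9 with 719 bp, Klf4 with 519 bp and Klf11 with 283 bp. The median was 1739.5 bp against 571 bp for all genes with such a gap, and the Klf2 gap was wider than 94.4% of them. Runx3 lay within 1 kb of a coding start, outermost or not, at 5 of these 8 genes, against 61.7% of all genes with a gap. Over all genes with a gap, the median gap was 570 bp in the 2383 genes with such a Runx3 peak and 573.5 bp in the 1480 without. The medians were thus close, while the lower quartiles were 359 and 348.8 bp and the upper quartiles 927 and 1161 bp.

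How far Runx3 filled the gap also varied. Runx3 peaks covered 88.9% of the gap at Klf13, 88.3% at Klf11 and 72.5% at Klf10, but 28.7% at Klf6 and 20.2% at Klf2. At Klf3, Klf4 and Klf9 no peak touched the gap. The median over all genes with a gap was 41.0%. The 2 Klf peaks that overlapped no H3K4me1, at Klf10 (chr15:38229097-38229680) and Klf13 (chr7:71081829-71083031), both lay wholly in such gaps.

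**Figure D3:**
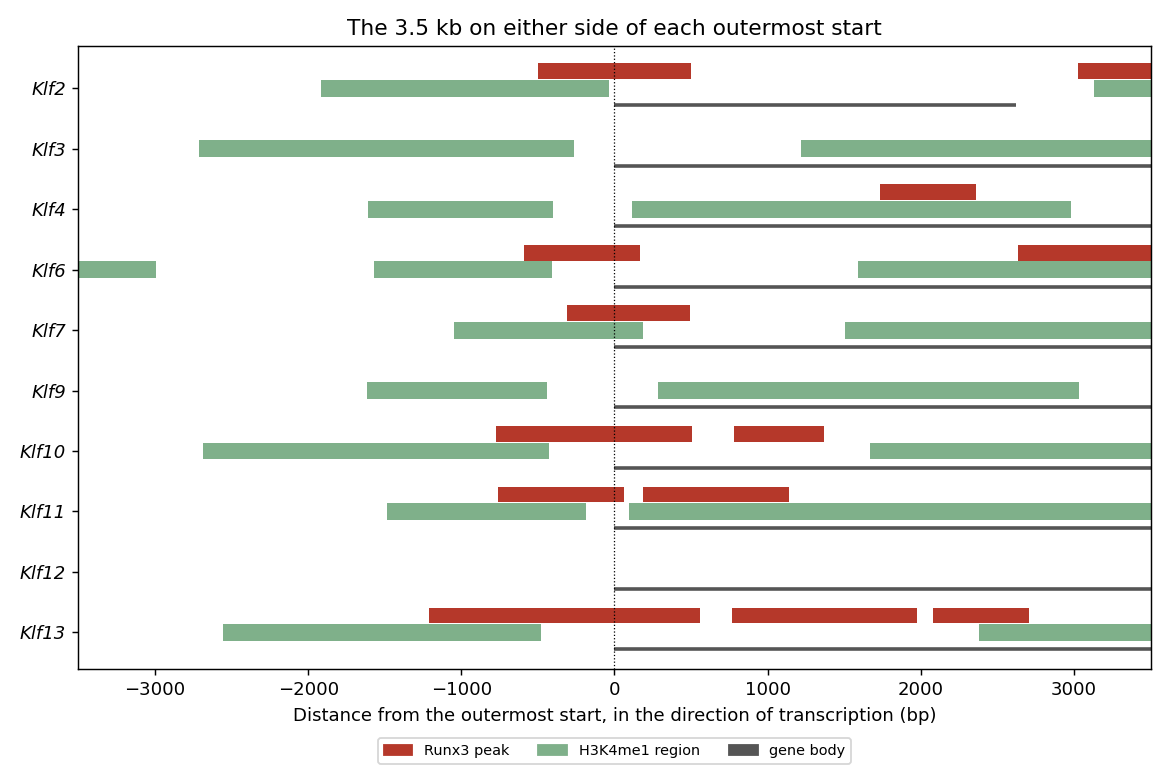
Runx3 peaks, H3K4me1 regions and gene bodies within 3.5 kb of each outermost start, against distance in bp in the direction of transcription (dotted line, start). H3K4me1 stands on both sides of the start and leaves a gap over it at 8 genes, from 283 bp at Klf11 to 3164 bp at Klf2; it crosses the start at Klf7 and is absent at Klf12.

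The activator genes held 8 peaks together. Klf2 (chr8:74842932-74845555, plus strand) had a peak of 1001 bp centred on its start, at chr8:74842432-74843432, in which 46.8% of the bases carried H3K4me1, and these lay on the upstream side. A second peak of 619 bp was centred 3336 bp from the start, past the end of this short gene, at the near edge of an H3K4me1 region of 10087 bp. H3K4me1 covered 47.3% of the window. The widest region, of 26061 bp, began 21969 bp downstream of the start and ran beyond the window, and the 4 Runx3 peaks in it all lay outside the window and were not counted. Eps15l1 and Gm10282 overlapped the same window, and 2 of its 7 H3K4me1 regions were nearest to the start of Gm10282.

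Klf4, whose product is a reprogramming factor and acts in monocyte differentiation, had 1 peak of 629 bp (chr4:55542984-55543612) on a coding exon. It lay wholly within an H3K4me1 region of 2865 bp. Cover was 13.8%, above 64.3% of the genes in its length class, so Klf4 had the least H3K4me1 of the activator genes.

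Klf6, an early response gene, had Runx3 peaks on both sides of its start. A pair 364 bp apart lay upstream, with midpoints at 15621 and 14454 bp from the start, in an H3K4me1 region of 9486 bp. The start peak (chr13:5860144-5860899, 756 bp) had 24.2% of its bases in H3K4me1. The widest of the 4 peaks, of 1102 bp (chr13:5863369-5864470), was centred 3184.5 bp into the gene and lay wholly in H3K4me1. The start was thus the least marked of the Runx3 sites at Klf6.

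Klf7 (chr1:64076021-64168856, minus strand), which is active in lymphoid and neural cells, showed the reverse balance of the marks. It had 15 H3K4me1 regions, the most of the 10 genes, and a single Runx3 peak of 804 bp at its start (chr1:64168365-64169168). The regions were small, from 962 to 4466 bp, and only the region of 1233 bp over the start held the peak. Cover was 22.7%, above 89.7% of the genes of its class.

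Among the CtBP-recruiting repressor genes, 3 peaks lay at Klf3 and none at Klf12. Klf3 (chr5:65194628-65221368, plus strand) had no peak at a start. Intronic peaks of 863 and 675 bp were centred 11285 and 16283 bp from the outermost start, and 2335 and 7333 bp from the nearest of its 3 coding starts. Both lay in 1 H3K4me1 region of 16224 bp that began 1215 bp after the outermost start. The third peak, of 787 bp, was 37515 bp from that start, downstream of the gene, in an H3K4me1 region of 2524 bp.

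Klf12 (chr14:100269869-100549015, minus strand), which encodes a repressor of the AP-2 alpha gene, stood apart from the other members. It had the longest window, 319.1 kb, with 0 Runx3 peaks and 1 H3K4me1 region of 2451 bp that began 205019 bp into the gene. A count of 0 allows up to 0.94 peaks per 100 kb (3 counts). Such a count was common, since 49.2% of the 1291 genes with windows over 200 kb had a peak. H3K4me1 covered 0.768% of the window, and 21.9% of the genes in its class had less. Its start also differed in sequence, with 40.6% GC and a ratio of observed to expected CpG of 0.368 in the 1 kb at the start, against member medians of 66.4% and 0.878 and medians over all genes of 54.7% and 0.549.

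The Sin3A-recruiting repressor genes held 14 of the 25 peaks. Klf9, a gene induced by glucocorticoid and thyroid hormone, had 1 peak of 1297 bp (chr19:23209654-23210950) centred 5414 bp upstream of its start, within a region of 3854 bp. H3K4me1 flanked the Klf9 start itself and covered 14.1% of the window, but no Runx3 peak lay there.

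Klf10 and Klf11 encode related factors induced by TGF-beta. Klf10 had 2 peaks 275 bp apart at its starts, of 1282 bp (chr15:38229956-38231237) and 584 bp. A further pair 380 bp apart lay downstream, with midpoints 16515.5 and 17784.5 bp from the outermost start, in an H3K4me1 region of 8080 bp. Klf11 had a single pair, 122 bp apart, of 823 bp (chr12:25335477-25336299) and 954 bp (chr12:25336422-25337375), and none further off. Both genes therefore had a double peak at the start, and Klf10 had a double peak away from it as well.

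Klf13 (chr7:71031237-71083801, minus strand), whose product drives late Ccl5 expression in T cells, had the most Runx3 and the most H3K4me1. Its widest peak, of 1772 bp (chr7:71083241-71085012), covered the outermost start and was the widest at any of the 10 genes. Peaks of 1203 and 628 bp followed at 209 and 109 bp. The gene body then carried 1 H3K4me1 region of 42130 bp, which held 5 peaks including the last of these 3. A peak of 894 bp (chr7:71069979-71070872) in that region lay 223 bp from a second annotated start of the gene. H3K4me1 covered 54.0% of the window, above 99.1% of the genes in its class.

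Close pairs were frequent. Of the 25 Klf peaks, 11 had another Runx3 peak under 500 bp away, or 44%, against 8.95% of all peaks. The 500 bp distance was chosen after the spacings at these genes were seen. Both peaks of a pair count, so the 11 peaks are not independent and no interval is given. They came from 4 genes, Klf6, Klf10, Klf11 and Klf13. The lists give no signal between such peaks, so whether a pair is 1 site cannot be told apart from 2.

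All 25 Klf peaks held the RUNX consensus (95% Wilson interval 86.7 to 100%), against 93.3% of all Runx3 peaks. Windows of the same width 5 kb downstream held it in 78.3% of 23 cases at the Klf genes and in 74.9% over the list. In the central 200 bp the share was 72% (18 of 25, interval 52.4 to 85.7%) at the Klf genes and 69.1% over all peaks. In the same part of the downstream windows it was 34.8% and 29.2%. Matches numbered 69, from 1 to 10 per peak with a median of 2, and the start peak of Klf13 had the 10. The Klf peaks thus resembled the list in RUNX content.

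The separate forms were found at similar rates to the list. TGTGGT was present in 60% of the Klf peaks and 65.5% of all peaks. TGTGGC was present in 60% and 54.1%. The forms with a CpG were rarer, with TGCGGT in 28% and 24.7% and TGCGGC in 36% and 26.1%.

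The Klf peaks fell into a CpG-poor and a CpG-rich set. A limit of 3 CpG per 100 bp, chosen after the values were seen, left 13 peaks below it, up to 1.93 CpG, and 12 above it, from 4.3 CpG at the third Klf13 peak. Among all Runx3 peaks 36.3% were at or above this limit. All 13 CpG-poor peaks had a RUNX match in the central 200 bp, against 74.7% of all CpG-poor peaks. The match was there in 5 of the 12 CpG-rich peaks, against 59.4% of all CpG-rich peaks. The midpoint lay in H3K4me1 in all 13 CpG-poor peaks and in 6 of the 12 CpG-rich peaks, with 95.4% and 62.9% over the whole list. The list as a whole showed the same direction for both measures.

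Both sets differed in the form of the match. Of 29 matches in the CpG-poor peaks, 1 contained a CpG, and it lay in the first upstream peak of Klf6. Of 40 matches in the CpG-rich peaks 24 did, or 60%. Over the whole list the shares were 9.87% and 53.5%. The sets were split by their CpG content, so a difference in matches that contain a CpG was built into the split.

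**Figure D4:**
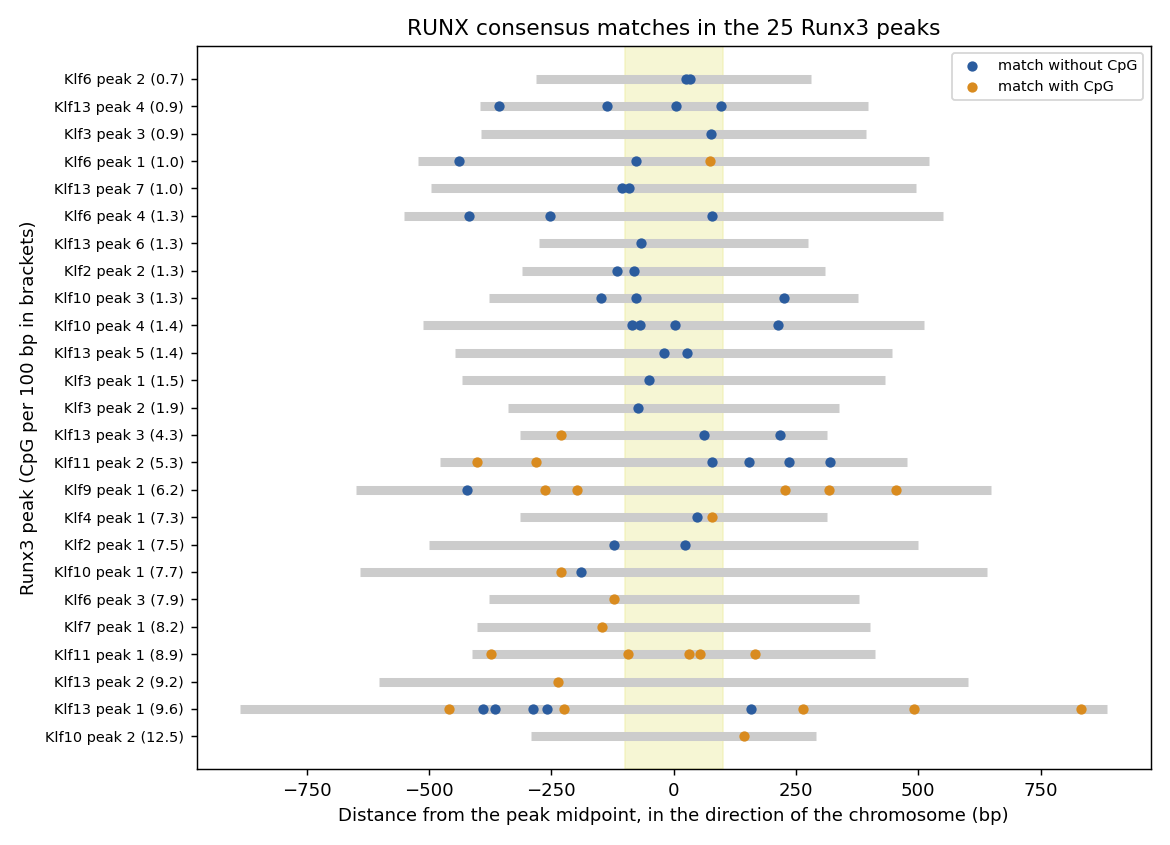
Positions of RUNX consensus matches in the 25 Runx3 peaks, against distance in bp from the peak midpoint; grey bars are the peaks, ordered by CpG per 100 bp, and the shaded band is the central 200 bp. All 13 CpG-poor peaks, at the top, have a match in the band and 5 of the 12 CpG-rich peaks, at the bottom, do.

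The ETS sequence, AGGAAGT or CGGAAGT, was present in 20% of the Klf peaks (5 of 25, interval 8.86 to 39.1%) and in 41.8% of all peaks. All 5 held AGGAAGT, at Klf3 (both the second and the last peak), Klf7, Klf10 and Klf13. At Klf10 it shared 1 base with a RUNX match, as printed above, whereas in the second Klf3 peak 59 bases separated them. The spacing was 113 bases in the last Klf3 peak, 217 at Klf7 and 379 at Klf13. The AP-1 sequence TGACTCA, with its reverse complement, was present in 12% and 16.5%. In the central 200 bp the ETS sequence was present in 16% of the Klf peaks (interval 6.4 to 34.7%) and 20.1% of all peaks. In the downstream windows the ETS sequence was found in 30.4% at the Klf genes and 21.6% over the list, and the AP-1 sequence in 13.0% and 14.7%.

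Sequences that the KLF and SP proteins bind were also counted. The GC-box GGGCGG was present in 52% of the Klf peaks (interval 33.5 to 70.0%) and 41.9% of all peaks. Its density was 5.37 per kb in the CpG-rich Klf peaks and 0.0938 per kb in the CpG-poor ones, against 3.08 and 0.248 per kb over the list. CACCC was present in 92% and 88.3%, and the longer CACACCC in 28% and 24.9%. Downstream windows held the GC-box in 13.0% and 12.4%, CACCC in 87.0% and 79.7%, and CACACCC in 17.4% and 18.0%. A match of such short letters does not show that a protein was bound.

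Other genes of the family were read from lists in the same way. Of the 7 other Klf genes, 3 had a Runx3 peak, near the 51.0% of all genes, with 3 at Klf16 and 1 each at Klf1 and Klf5, and none lay at Klf8, Klf14, Klf15 or Klf17. Their median H3K4me1 cover was 5.7%. Of the 9 Sp genes, 7 had a peak, again beside 51.0% of all genes, from 5 at Sp2 and 4 at Sp6, whose windows share 1 peak, to 2 at Sp4 and Sp7 and 1 at Sp1, Sp3 and Sp9, and none lay at Sp5 or Sp8. The Sp genes were closer to the 10 Klf genes in H3K4me1 cover, with a median of 25.0%. These lists were not tested against each other.

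The co-repressor genes had 3 peaks at Sin3a, 2 at Ctbp1 and 1 each at Ctbp2 and Sin3b, and Wwp1, a ubiquitin ligase gene whose product acts on KLF2, had 1. All 5 thus had a peak, against 51.0% of all genes, and their median of 1 peak equalled that of all genes. Their windows were long, with a median of 96.3 kb. The share of genes with a peak was 60.8% for windows of 60 to 100 kb and 56.2% for longer ones. Among genes linked to KLF2 in lymphocyte trafficking, the integrin gene Itgb7 had 4 peaks and the sphingosine phosphate receptor gene S1pr1 had 2, with H3K4me1 over 47.1% and 41.6% of the windows. A Runx3 peak within 1 kb of a start was present at both. Of all genes, 51.0% had a peak in the window and 27.5% had one within 1 kb of a start, and median H3K4me1 cover was 7.38%.

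The labelled cell type was read from marker genes. The 5 NK genes Ncr1, Klrb1c, Klrd1, Tbx21 and Eomes all had Runx3 peaks, from 3 to 12, and H3K4me1 over 29.8 to 94.8% of their windows. Of 9 genes marking T cells, B cells or myeloid cells, 5 had a peak, 2 at most, and 0 had one within 1 kb of a start, with cover from 0 to 27.3%. Among all genes 51.0% had a peak and 27.5% had one within 1 kb of a start, so the share with a peak at these 9 genes was near that of all genes. The highest of these covers belonged to the T cell gene Cd3e, and Cd8a, Ms4a1 and Lyz2 were at 0. The part of other cells in the Klf peaks was not tested.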

How the data were processed

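The 3 ChIP-seq samples, 1 per group, were assigned from the labels, which describe a sort on NKp46 where the methods describe DX5, and the files do not settle this. The authors aligned reads with ELAND to mm9, kept unique alignments, joined biological repeats and called regions by MACS with NIS as control. The submitters' processing notes name CASAVA 1.7. The authors deposited 1 coordinate list each for Runx3 and H3K4me1, with no counts, scores or summits, so no test was made. The methods state the uniquely aligned reads of each library, which are not repeated here, and the reads behind a single peak are not given in the lists. Coordinates are given 1-based. Genes, starts, exons and sequence came from the GENCODE vM1 annotation and the genome of the same build. Overlap required 1 bp, and 0 per-sample columns were left aside. Wilson intervals were at 95%. Python 3.11.15, numpy 2.4.6, scipy 1.17.1 and matplotlib 3.10.9 were used, and the counting functions were tested on simulated data.

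All 10 members were named. A gene that is no member was named where its start was nearer to a peak in a member window or where it stood in a listed family, partner or marker set; single peaks were named at a start, when widest in the window or without H3K4me1. Eps15l1 and Gm10282, and other single peaks, were chosen after their values were seen, as were the 5 kb gap, the 500 bp pair distance, the limits of 4 peaks and 10 kb, the length classes, the CpG limit and CACACCC. The members and lists were chosen with earlier results of these data known. A further gene of the trafficking list is not reported here.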

Additional observations from a re-analysis of the deposited data

How the results depend on the processing

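Of 28 alternatives to 12 results, 19 stayed within the limits set for a change and 9 moved, and 7 were added after the data were seen. The 25 Runx3 peaks in the windows became 42 with 50 kb on either side and 12 with only peaks wider than the list median. Leaving out Klf13, the gene with the most peaks, left 18 peaks. The number of genes with H3K4me1 over a start fell from 9 to 5 when a start base itself had to lie inside a region, and to 1 when it had to be the outermost start. Of all 22350 genes, 7714 had the outermost start inside a region, and no such count is given here for any start base. Median H3K4me1 cover rose from 26.6 to 34.2% over gene bodies alone, where all genes had 5.61%. In the central 200 bp the share of Klf peaks with the RUNX consensus was 72% in place of 100%, AP-1 was 4%, the GC-box 24% and CACCC 64%, since a shorter stretch holds fewer letters. Over all Runx3 peaks these central shares were 69.1, 5.5, 21.5 and 49.1%. A Runx3 peak within 2 kb of a start was found at 8 genes, and the share of all genes at this distance is not given here. Gaps with H3K4me1 within 2 kb on both sides were found at 6, against 16.0% of all genes with such a gap arrangement. The lists hold no depth or score, so weak and strong peaks could not be told apart, and 1 list per antibody gives no replicate check. No paired analysis was possible because each group has 1 sample and no result comes from a test.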

Other observations

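With 50 kb on either side the windows gained 17 Runx3 peaks, at 6 of the 10 genes. Klf2 gained 6, of which 4 were nearest to its own start and the others to Gm10282. Klf13 gained 4, Klf4 gained 3 and Klf3 gained 1, all nearest to the start of the gene itself. Klf10 gained 2 nearest to Odf1, and Klf11 gained 1 nearest to Rrm2. Klf6, Klf7, Klf9 and Klf12 gained 0, so Klf12 remained without a peak.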
